A study of Mus musculus with 12 samples.

Results

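Genes that mark resident alveolar macrophages were compared between mice that had breathed ozone and mice that had breathed filtered air. The genes were chosen by name from a list of 10 symbols, and 9 of them have a row among the 55291 genes of the deposited table. They are the keratins Krt79 and Krt19, the ribonucleases Ear1 and Ear2, the lipid-handling genes Fabp1, Cidec and Lpcat1, and the cell-surface genes Car4 and Plet1. The tenth, the antisense RNA Atp6v0d2-as, has no row under that symbol and was not analysed here. All cells were sorted by flow cytometry as alveolar macrophages from lungs of female C57BL/6NJ mice aged 8 to 11 weeks. The ozone group of 6 mice breathed 0.8 ppm ozone for 4 h a day on 4 days in a row, the control group of 6 mice breathed filtered air, and lungs were taken 3 days after the exposures ended. Each of 2 flow-sort batches held 3 mice of either group. The labels name no transgene or deletion.

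Resident alveolar macrophages settle in the airspaces around birth under the growth factor GM-CSF and the nuclear receptor PPAR-gamma, renew themselves locally, and take up and break down surfactant lipid. A small set of genes that most other macrophages lack, among them Car4, Krt79, Krt19, Ear1, Ear2, Fabp1 and Cidec, is widely used to tell them from macrophages that arise from blood monocytes. In bulk RNA from a sort, fewer cells that carry such a marker and less of its RNA per cell cannot be told apart.

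The values had been variance-stabilized and are close to log2 expression. For each gene they were centred so that filtered air averages 0, which means that a value is a difference from filtered air and that levels cannot be compared between genes. Differences of weakly expressed genes are compressed on this scale. Mice without reads for a gene share the lowest value of their batch. For each of the 9 genes, 0 of the 12 mice lay at such a shared lowest value. A single mouse without reads in a batch would not be seen in this way. All 9 passed the filter on low values, so none entered through 1 group alone. Relative sequencing depth ran from 0.871 to 1.22 after ozone and from 0.899 to 1.17 in filtered air (exact permutation test, two-sided, p = 0.827). RNA integrity numbers were 9.48 ± 0.172 (SD, n = 6) and 9.42 ± 0.293 (SD, n = 6) (exact permutation test, two-sided, p = 0.747). Filtered-air mouse 4 stood apart: its integrity number of 8.9 was the lowest of the 12, and its mean was the highest of the 12 over the markers of monocytes (0.37), B cells (0.34), T and NK cells (0.29), eosinophils (0.26), type 2 cells (0.26), interstitial or monocyte-derived macrophages (0.25), neutrophils (0.23) and type 1 cells (0.17). Over the markers of alveolar macrophages it was the lowest (-0.07). Without this mouse the 3 calls given next held, with limma adjusted p-values of 0.0229 for Krt79, 0.0463 for Ear1 and 0.0252 for Car4.

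After ozone, Krt79 and Ear1 fell and Car4 rose, so that resident markers moved in opposite directions in the same sorts. These are 3 of the 9 genes with a limma adjusted p under 0.05, or 33.3%, beside 4.25% of the 19633 genes tested. Lower calls made up 22.2% of the markers and 1.84% of all genes, and higher calls 11.1% and 2.41%. The genes had been chosen with results of these data known, so these shares describe the list and are no test of it. Before adjustment 6 of the 9 had a p under 0.05, as did 16.7% of all genes tested, the share against which such counts for the gene lists are to be read. Of the 9, 6 had a negative difference and 3 a positive one, with a median of -0.081 beside -0.0033 for all genes tested. In 0 of the 9 were the ozone and filtered-air mice fully separate; over all genes tested, groups were separate in 3.53%, with ozone lower in 1.58% and higher in 1.96%. All 10 general markers of alveolar macrophages checked, among them Siglecf, Marco and Cd68, were above the shared lowest value in all 12 mice.

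**Figure D1:**
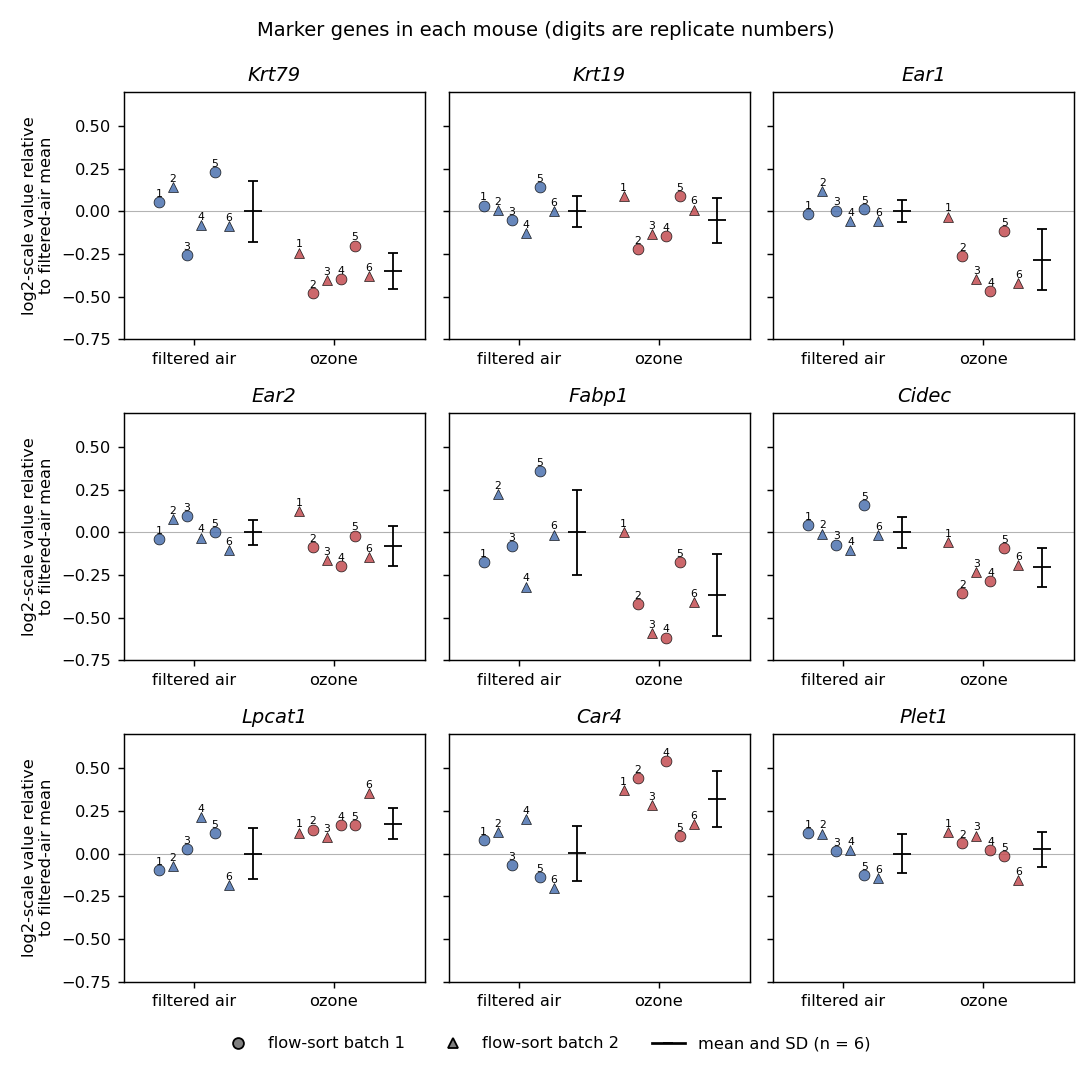
Value of each marker gene in each mouse, on the vertical axis as the log2-scale difference from the filtered-air mean, with filtered air left and ozone right; circles and triangles are flow-sort batches 1 and 2, digits are replicate numbers, and bars give the mean and SD of 6 mice. Ozone mice 1 and 5 lie above the other ozone mice in Krt79, Krt19, Ear1, Ear2, Fabp1 and Cidec.

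Keratins build the intermediate filaments of epithelia, and Krt79 (chr15:101929332-101940324, minus strand, GRCm38, as are all gene positions given here) is a type II keratin. Its values after ozone were -0.24, -0.48, -0.40, -0.40, -0.20 and -0.38 in mice 1 to 6. In filtered air they were 0.05, 0.14, -0.26, -0.08, 0.23 and -0.09. All ozone mice lay below 5 of the filtered-air mice, and 4 of them also below the lowest, mouse 3. Krt79 fell by 0.35 (SE 0.0762, limma adjusted p = 0.0177), from 0 ± 0.177 (SD, n = 6) to -0.35 ± 0.106 (SD, n = 6). The difference was -0.37 in batch 1 and -0.33 in batch 2. It kept its call in all 12 fits that left out 1 mouse, with adjusted p-values from 0.00582 to 0.0471, which held for Krt79 alone among the 3 called markers. It lost the call after quantile normalization (adjusted p = 0.176) and in batch 1 (0.273) or batch 2 alone (0.228).

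Krt19 (chr11:100140810-100148665, minus strand), a type I keratin, ran from -0.22 to 0.09 after ozone and from -0.13 to 0.14 in filtered air. The groups overlapped widely, with a difference of -0.05 (SE 0.0617, limma adjusted p = 0.753). It was -0.13 in batch 1 and 0.029 in batch 2, opposite in sign, and the interaction of exposure with batch had an adjusted p of 1.0 in limma. Of 10 further keratins, 6 were expressed well enough to be tested. Differences were negative in 5 and positive in 1, and limma called 2 lower and 0 higher. Krt80 fell by 0.31 (SE 0.0627, limma adjusted p = 0.0124). Krt7 fell by 0.21 (SE 0.0547, limma adjusted p = 0.0442), a call that was lost without any 1 of filtered-air mice 1, 2, 3, 5 and 6 or ozone mice 1, 2, 3 and 5, with adjusted p-values up to 0.103. The call of Krt7 was also lost without the filter on low values (0.0546) and with the variance trend (0.0653). Krt8 and Krt18, the keratin pair of simple epithelium, had differences of -0.044 and -0.014. Of 11 markers of airway epithelium, which also expresses keratins, limma called 1 lower (Epcam, an adhesion molecule, by 0.55) and 0 higher. The 11 markers had 6 negative and 5 positive differences. Their mean ran from -0.25 to 0.09 after ozone and from -0.19 to 0.17 in filtered air. The part of epithelial RNA in the keratin values was not tested.

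Ear1 and Ear2 encode eosinophil-associated ribonucleases, secreted members of the RNase A family that mouse alveolar macrophages also express. They are near copies of each other on chromosome 14. The 250 bases upstream of each start site (RefSeq, GRCm38.p6, 5′ to 3′ on the strand of the gene) are shown because the differences of these near-identical genes were unequal; capitals mark bases that differ between both or that have no partner.
Ear1, chr14:43819640-43819889, minus strand: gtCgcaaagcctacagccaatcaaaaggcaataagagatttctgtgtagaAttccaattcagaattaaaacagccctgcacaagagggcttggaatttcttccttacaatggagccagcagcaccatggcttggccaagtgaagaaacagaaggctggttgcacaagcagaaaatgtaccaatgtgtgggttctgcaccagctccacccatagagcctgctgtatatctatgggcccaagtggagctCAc
Ear2, chr14:44102404-44102653, plus strand: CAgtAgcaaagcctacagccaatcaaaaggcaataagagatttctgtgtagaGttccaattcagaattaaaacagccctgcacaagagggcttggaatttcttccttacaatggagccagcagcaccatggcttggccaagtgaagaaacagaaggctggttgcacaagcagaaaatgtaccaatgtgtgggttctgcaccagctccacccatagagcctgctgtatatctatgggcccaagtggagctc
The windows differ at 2 aligned positions, and 2 bases of each have no partner in the other. The start sites are those of RefSeq; GENCODE begins both Ear1 and Fabp1 further upstream. The longest transcripts of the genes are 96% identical. Of all 50-base words in Ear1 transcripts, the length of the reads, 57.4% also occur in another gene, most often in the pseudogene Ear-ps9 (41.4%) and in Ear2 (23.8%). For Ear2 the share is 41.5%, with Ear10 (26%) and Ear1 (23.6%) first. These shares count single words, while the reads were paired. Salmon 1.5.2 is named in the processing notes, but how it divided reads shared by such genes is not given in the sources used here. The values of Ear1 and Ear2 are therefore uncertain. For the other 7 markers the share of words found in other genes was 0, except for 0.79% in Plet1.

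Ear1 (chr14:43818765-43875517, minus strand) read -0.03, -0.26, -0.40, -0.47, -0.12 and -0.42 in ozone mice 1 to 6. In filtered air it read -0.017, 0.12, 0.004, -0.06, 0.01 and -0.06. The filtered-air mice lay close together and 5 of 6 ozone mice lay below all of them; ozone mouse 1 lay among them. Ear1 fell by 0.28 (SE 0.0705, limma adjusted p = 0.0358), with an SD of 0.177 after ozone and 0.0645 in filtered air (n = 6 each). The difference was -0.28 in both batches. The call was lost, with adjusted p-values up to 0.091, without any 1 of filtered-air mice 1, 2, 3 and 5 or ozone mice 2, 3, 4 and 6, while without ozone mouse 1 the adjusted p was 0.00833. The call of Ear1 was also lost without the filter on low values (0.0522), with the variance trend (0.0573) and after quantile normalization (0.123).

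Ear2 (chr14:44102654-44103534, plus strand) read 0.12, -0.09, -0.16, -0.20, -0.02 and -0.14 in ozone mice 1 to 6, and between -0.11 and 0.10 in filtered air. Its order among the ozone mice resembled that of Ear1, with mice 1 and 5 at the top, but its difference of -0.081 (SE 0.0558, limma adjusted p = 0.534) did not pass. Whether Ear1 changed more than Ear2 was not tested. Among 11 other ribonucleases of these families, 9 were tested. Differences were positive in 6 and negative in 3, and limma called 0 higher and 1 lower. Rnase4 fell by 0.28 (SE 0.0592, limma adjusted p = 0.0149) with separate groups. Ear6, a relative of Ear1 with 0.954% of its 50-base words in other genes, was at 0.31 (SE 0.084, limma adjusted p = 0.052), the opposite sign to Ear1 but short of the threshold. Of 6 marker genes of eosinophils, which also express such ribonucleases, Epx was without reads in all 12 mice, Prg3 in 11, Ccr3 in 10 and Prg2 in 7. For Il5ra and Alox15, 0 of the 12 mice lay at a shared lowest value. Il5ra had a difference of -0.06 (SE 0.0469, limma adjusted p = 0.598) and Alox15 one of -0.09 (SE 0.0855, limma adjusted p = 0.666). The mean of both ran from -0.15 to 0.01 after ozone and from -0.10 to 0.26 in filtered air. The part of eosinophil RNA in the values of Ear1 and Ear2 was not tested.

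Fabp1 is the liver-type fatty acid binding protein, an intracellular lipid carrier and a known target gene of PPAR receptors in liver. Its upstream 250 bases are shown because they hold matches to motifs of both the nuclear receptor and the PU.1 family, in capitals (RefSeq, GRCm38.p6, 5′ to 3′ on the strand of the gene).
Fabp1, chr6:71199629-71199878, plus strand: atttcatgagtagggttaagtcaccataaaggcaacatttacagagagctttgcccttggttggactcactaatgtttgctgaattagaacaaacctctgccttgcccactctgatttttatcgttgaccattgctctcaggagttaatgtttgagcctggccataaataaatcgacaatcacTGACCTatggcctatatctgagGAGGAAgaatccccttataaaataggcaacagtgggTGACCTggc
Searched on both strands were AGGTCA, the element bound by many nuclear receptors, GAGGAA, the core of PU.1 sites, TGANTCA for AP-1 and CACGTG, an E-box. Fabp1 has AGGTCA on the opposite strand starting at -67 and at -9 from the start site, and GAGGAA at -45, and the matches do not overlap. AGGTCA occurs in 14% of 32851 windows of this length, GAGGAA in 23.3%, TGANTCA in 6.75% and CACGTG in 6.02%. Of the 8 markers with a window, Plet1 held AGGTCA at -62 and TGANTCA at -144, and the second of the windows of Cidec held TGANTCA at -96. The windows of Car4, Krt79, Ear1, Ear2 and Lpcat1 held none of the 4. These are matches of letters and say nothing of binding.

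Fabp1 (chr6:71199827-71205023, plus strand) read 0.002, -0.42, -0.59, -0.62, -0.17 and -0.41 in ozone mice 1 to 6. In filtered air it read -0.17, 0.22, -0.08, -0.32, 0.36 and -0.01. It was the most variable marker in both groups, with SDs of 0.241 and 0.251 (n = 6 each). Its difference of -0.37 (SE 0.122) was the largest in size of the 9 but did not pass (limma adjusted p = 0.12), and 4 ozone mice lay below all filtered-air mice. It passed without ozone mouse 1, at -0.45 (limma adjusted p = 0.0449). Without filtered-air mouse 4, the lowest of its group in Fabp1, it was -0.44 (limma adjusted p = 0.0596). Of 8 other fatty acid binding proteins 4 were tested; 0 were called by limma in either direction and 2 had an unadjusted p under 0.05. The smallest p was that of Fabp5, at 0.14 (SE 0.0464, limma adjusted p = 0.114), the opposite sign to Fabp1.

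Cidec (chr6:113424634-113435760, minus strand) encodes a protein of the lipid droplet surface that lets droplets fuse and grow. It read -0.06, -0.36, -0.23, -0.29, -0.09 and -0.19 in ozone mice 1 to 6, and between -0.10 and 0.16 in filtered air. The difference was -0.20 (SE 0.0578), and 4 ozone mice lay below all filtered-air mice, yet it fell just short of the threshold (limma adjusted p = 0.0667). It was -0.29 in batch 1 and -0.12 in batch 2. Without ozone mouse 1 it passed, at -0.24 (limma adjusted p = 0.0351). All 12 other lipid droplet genes examined were tested. Differences were negative in 6 and positive in 6, and limma called 2 lower and 0 higher. Pnpla2, the main triglyceride lipase of droplets, fell by 0.25 (SE 0.0401, limma adjusted p = 0.00355). G0s2, which encodes its inhibitor, fell by 0.26 (SE 0.0645, limma adjusted p = 0.032). The difference of G0s2 was -0.42 in batch 1 and -0.11 in batch 2. The limma test of this interaction across all genes gave it an adjusted p of 1.0 and a value of 0.00826 before adjustment. The call was lost with the variance trend (0.053). It did not pass on leaving out any 1 of filtered-air mice 1, 3, 5 and 6 or ozone mice 1, 2, 4 and 5.

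Lpcat1 (chr13:73467197-73516422, plus strand) encodes an acyltransferase that remakes phosphatidylcholine, and is also expressed by the alveolar type 2 cells that secrete surfactant. It ran from 0.10 to 0.35 after ozone, highest in mouse 6, and from -0.19 to 0.21 in filtered air, highest in mouse 4. The ozone mice lay within the upper part of the filtered-air range except mouse 6. The difference was 0.17 (SE 0.0657, limma adjusted p = 0.175), and without filtered-air mouse 4 it was 0.22 (limma adjusted p = 0.0551). The mean over 9 type 2 cell markers, of which 0 were called by limma and 2 had an unadjusted p under 0.05, was highest in these same mice, at 0.08 in ozone mouse 6 and 0.26 in filtered-air mouse 4. It ran from -0.12 to 0.08 after ozone and from -0.19 to 0.26 in filtered air. This match was not particular to type 2 cells. Ozone mouse 6 was also the highest ozone mouse over markers of fibroblasts (0.21), neutrophils (0.20), capillaries (0.17), dendritic cells (0.06) and type 1 cells (0.01). Filtered-air mouse 4 was also highest over the other lists named for it above. The part of any of these cells in the values of Lpcat1 was not tested. Of 11 other genes of lysophospholipid and surfactant lipid handling, 10 were tested. Differences were negative in 5 and positive in 5, and limma called 1 lower and 0 higher. That gene, Lpcat4, fell by 0.20 (SE 0.0532, limma adjusted p = 0.0459), and of the 12 fits that left out a mouse only those without filtered-air mouse 5 or ozone mouse 6 kept this call, the other 10 giving adjusted p-values up to 0.106. The call of Lpcat4 was also lost without the filter on low values (0.0555), with RNA integrity as covariate (0.0643) and with the variance trend (0.067).

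Car4 (chr11:84957786-84966044, plus strand) encodes a carbonic anhydrase anchored to the outer cell surface, which interconverts carbon dioxide and bicarbonate. It read 0.37, 0.44, 0.28, 0.54, 0.10 and 0.18 in ozone mice 1 to 6. In filtered air it read 0.08, 0.13, -0.07, 0.20, -0.14 and -0.20. All ozone mice were above 0 and 4 of them lay above every filtered-air mouse; ozone mice 5 and 6 overlapped the upper filtered-air mice. Car4 rose by 0.32 (SE 0.0836, limma adjusted p = 0.046), to 0.32 ± 0.165 (SD, n = 6) against 0 ± 0.159 (SD, n = 6). The difference was 0.40 in batch 1 and 0.23 in batch 2. The call lay close to the threshold and was lost without any 1 of filtered-air mice 1, 3, 5 and 6 or ozone mice 1, 2, 3 and 4, with adjusted p-values up to 0.102. It was also lost with a robust prior variance (0.0542), with the variance trend (0.0616) and without the filter on low values (0.0679).

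Car4 also marks a type of lung capillary cell. Of 8 capillary markers tested, 8 had negative differences; 0 were called by limma and 2 had an unadjusted p under 0.05. Their mean ran from -0.31 to 0.17 after ozone and from -0.24 to 0.34 in filtered air. In ozone mice 1 to 6 it was -0.30, -0.31, -0.26, 0.03, -0.23 and 0.17, so that mouse 4, the highest in Car4, had the second highest capillary mean and mouse 2, the next highest in Car4, the lowest. The part of capillary RNA in the values of Car4 was not tested. Among 14 other carbonic anhydrases 13 were tested. Differences were positive in 4 and negative in 9, and limma called 1 higher and 0 lower. Car13, a cytosolic form, rose by 0.19 (SE 0.0407, limma adjusted p = 0.0157), with separate groups.

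Plet1 (chr9:50494525-50505482, plus strand) encodes a surface protein held by a lipid anchor. It ran from -0.15 to 0.13 after ozone and from -0.14 to 0.12 in filtered air, nearly the same range. The difference was 0.025 (SE 0.0594, limma adjusted p = 0.891), 0.022 in batch 1 and 0.028 in batch 2. Its lowest values were those of ozone mouse 6 and filtered-air mouse 6.

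**Figure D2:**
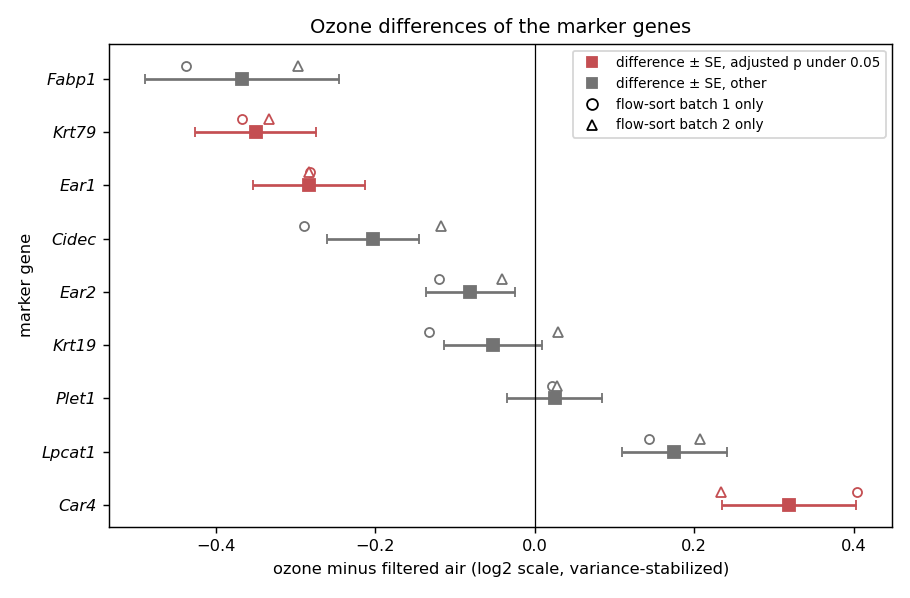
Difference between ozone and filtered air (horizontal axis, log2 scale) for each of the 9 marker genes (vertical axis), with SE from limma as bars; red squares mark an adjusted p under 0.05 and open symbols give the difference within each flow-sort batch. Only Krt19 changes sign between the batches, from -0.13 to 0.029, and Krt79, Ear1 and Car4 are the genes past the threshold.

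The exposure difference was compared between the flow-sort batches. The direction was the same in both for 8 of the 9 markers. In limma's interaction test 0 of the 9 markers passed after adjustment and 0 had an unadjusted p under 0.05, with p-values from 0.143 to 0.995. Over all genes tested, 0 passed (0.00%) and 510 had an unadjusted p under 0.05.

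Markers also varied together between mice of the same exposure and batch. For each of the 36 pairs, deviations from the mean of each exposure and batch were correlated over the 12 mice, with exact permutation within those groups (1296 arrangements, smallest possible p = 0.000772), two-sided, adjusted over the pairs. Krt19 and Cidec, a keratin and a lipid droplet gene on different chromosomes, had the highest correlation (Pearson r = 0.962, exact permutation p = 0.000772, adjusted p = 0.0278; Spearman rho = 0.965, p = 0.000772, adjusted p = 0.0278). Relative to their group, both were high in ozone mice 5 and 1 and in filtered-air mouse 5, and low in ozone mice 2 and 3 and in filtered-air mouse 3. Without ozone mice 2 and 5, the mice farthest from the median of Krt19, r was 0.934.

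For Krt79 and Cidec r was 0.878 (exact permutation adjusted p = 0.0278) and rho 0.867 (adjusted p = 0.0625), with r = 0.848 without filtered-air mice 3 and 5. For Krt79 and Krt19 r was 0.788 (exact permutation adjusted p = 0.0486) and rho 0.797 (adjusted p = 0.0625), with r = 0.8 without the same mice. For Ear1 and Fabp1 r was 0.782 (exact permutation adjusted p = 0.0486) and rho 0.776 (adjusted p = 0.0625), with r = 0.695 without ozone mice 1 and 4. No other pair passed. Ear1 and Ear2, which share reads, had r = 0.921 (exact permutation adjusted p = 0.0556), and Car4 and Plet1 had r = 0.684 (exact permutation adjusted p = 0.0556). The pair of Car4 and Krt19 had the lowest value, r = -0.546 (exact permutation adjusted p = 0.415).

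Ozone mice 1 and 5 were the highest of their group in Krt79, Krt19, Ear1, Ear2, Fabp1 and Cidec. They came from different flow-sort batches, and their relative depths, 0.874 and 1.22, were near the lowest and the highest of the 12. Over the markers of other cells they differed in some lists and were alike in others. Mouse 1 had the lowest ozone mean over 10 genes of interstitial or monocyte-derived macrophages (-0.08) and mouse 5 the highest (0.21). Of these genes 0 were called by limma and 3 had an unadjusted p under 0.05. Mice 1 and 5 also differed over markers of monocytes (-0.20 and 0.06) and T and NK cells (-0.16 and 0.15). Both lay below the other ozone mice over markers of type 1 cells (-0.30 and -0.21) and eosinophils (-0.15 and -0.12). Over B cell markers they were close (-0.26 and -0.27). Mouse 1 was also the highest ozone mouse over 10 general alveolar macrophage genes (0.18), mouse 5 the fourth (0.04). The part of any of these in the order of the ozone mice was not tested.

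**Figure D3:**
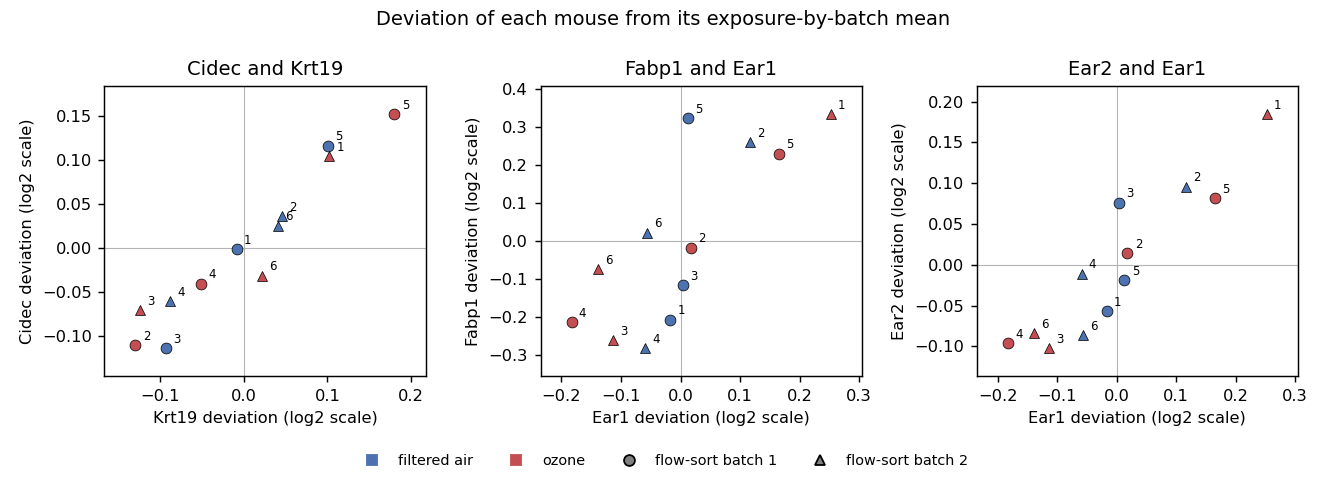
Deviation of each mouse from its exposure-by-batch mean, log2 scale on both axes, for Cidec against Krt19 (left), Fabp1 against Ear1 (middle) and Ear2 against Ear1 (right); blue is filtered air, red is ozone, circles and triangles are flow-sort batches 1 and 2, and digits are replicate numbers. In the left panel the 12 mice follow 1 line (r = 0.962).

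Genes most like Krt79 and Car4 over the 12 mice were sought as a description; the exposure difference is part of this likeness. Those most like Krt79 were Pdlim1 (r = 0.948), Rcbtb2 (r = 0.924) and Patj (r = 0.924). Pdlim1 fell by 0.20 (SE 0.0511, limma adjusted p = 0.0385), a call lost without any 1 of filtered-air mice 1, 2, 4 and 5 or ozone mice 2, 3, 4 and 6 and with the variance trend (0.0603). Rcbtb2 was not called, at -0.135 (SE 0.0409, limma adjusted p = 0.0852). Patj, a scaffold protein of epithelial junctions, fell by 0.27 (SE 0.0573, limma adjusted p = 0.0146). Those most like Car4 were Aco1 (r = 0.949), Sirpb1c (r = 0.941) and Stau2 (r = 0.932). Aco1, at 0.095 (SE 0.0336, limma adjusted p = 0.146), and Sirpb1c, at 0.21 (SE 0.0603, limma adjusted p = 0.0708), were not called. Sirpb1c passed without the batch term (0.0461), with RNA integrity as covariate (0.0328) and without filtered-air mouse 4 (0.024) or ozone mouse 6 (0.0442). Stau2, an RNA-binding protein, rose by 0.26 (SE 0.0514, limma adjusted p = 0.0102).

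Other genes of resident alveolar macrophage identity were mostly not called. Of 21 such genes, all tested, limma called 1 higher and 0 lower, and 6 had an unadjusted p under 0.05. Of the 21, 9 had a positive difference and 12 a negative one, with a median of -0.011. Chil3, a secreted chitinase-like protein, rose by 0.25 (SE 0.0604, limma adjusted p = 0.032), and the call was lost without any 1 of filtered-air mice 1, 3 and 6 or ozone mice 1, 4, 5 and 6. Of the 10 general alveolar macrophage markers, some of which are also among those 21, 5 had a positive difference and 5 a negative one. Called were 1 higher (Chil3) and 1 lower (Adgre1, by 0.30, limma adjusted p = 0.00291, with separate groups), and 5 had an unadjusted p under 0.05. Siglecf, the surface lectin used to sort these cells in many protocols, had a difference of -0.063 and Pparg one of -0.011. Marco, a scavenger receptor, was at 0.58 (SE 0.187, limma adjusted p = 0.108), a larger difference than that of any of the 9 markers but short of the threshold, with 5 of 6 ozone mice above every filtered-air mouse. Cd68, a lysosomal glycoprotein, was at 0.16. Among 12 regulators of the lineage 0 were called by limma and 3 had an unadjusted p under 0.05, with the smallest p in Bhlhe41 at 0.22 (SE 0.0685, limma adjusted p = 0.0877), which passed without filtered-air mouse 6 (0.0321) and with RNA integrity as covariate (0.0338). Among 10 V0 subunits of the V-ATPase, the proton pump of lysosomes, 0 were called by limma and 1 had an unadjusted p under 0.05, with the smallest p in Atp6v0a4 at -0.15 (SE 0.0457, limma adjusted p = 0.0976).

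**Figure D4:**
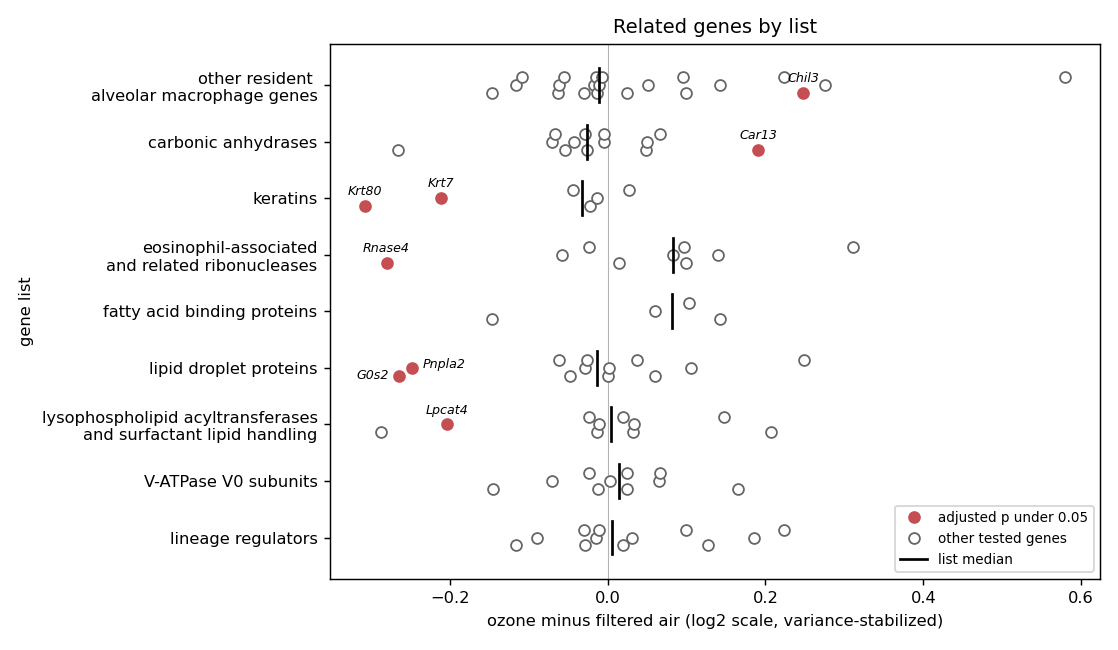
Difference between ozone and filtered air (horizontal axis, log2 scale) of every tested gene in the lists related to the markers (vertical axis); red points have an adjusted p under 0.05 in limma and black lines are list medians. Krt80, Krt7, Rnase4, Pnpla2, G0s2 and Lpcat4 lie below 0, and Chil3 and Car13 above.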

How the data were processed

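RNA of flow-sorted alveolar macrophages was sequenced with a stranded poly(A) kit as paired reads of 50 bases, per the labels' protocols. The authors deposited 1 table with a column per mouse, whose values are on a log2 scale after variance stabilization and batch correction, per the file's name. The submitters' processing notes name cutadapt, STAR 2.7.7a, Salmon 1.5.2, DESeq2 1.26.0, limma 3.42.2 and mm10; the annotation is not given in the sources used here. The deposited log2 values have a filtered-air mean of 0 in every gene and equal batch means. Mice without reads for a gene share the lowest value of their batch, and read steps above it gave relative depth; total reads are unknown. Of 25444 genes that were not constant, the 19633 with at least 6 mice above that minimum were tested.

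The exposures were compared in R 4.3.3 by limma 3.58.1; the model held flow-sort batch beside exposure, no variance trend was used, and p-values had Benjamini-Hochberg adjustment over all genes tested (threshold 0.05). The markers, gene lists and alternatives were chosen with earlier results of these data known. Of each list, genes with an adjusted p under 0.05 were named, or else the gene with the smallest p; a few others were named after their values were seen. For the called markers with the largest fall and rise, the 3 genes with the highest Pearson r were named. The code was tested on simulated data. Gene positions come from GENCODE M21 (GRCm38), and shared 50-base words from its transcripts. All 12 columns matched 1 sample each. Nothing in the labels says that same-numbered mice of the groups are linked, and the fit is unpaired. The 6 mice of a group have their own identity numbers in the labels and are treated as separate animals. Alternatives changed the filter, the prior variance, the covariates, the normalization and the mice included.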

Additional observations from a re-analysis of the deposited data

Results flagged for a closer look

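Ozone mouse 6 stood apart from the other ozone mice in Lpcat1, at 0.35, where the other 5 lay between 0.10 and 0.17. Its gap to the nearest mouse was 0.724 of the range of the group, above Dixon's critical value for a group of this size. Among the 18 combinations of group and marker examined it was the 1 that passed, and chance gives about 0.9. Without this mouse the difference of Lpcat1 was 0.135 (limma adjusted p = 0.293), as against 0.175 with it.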

How the results depend on the processing

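The 3 calls depended on the setting, and all 9 differences kept their sign except those named here. Krt79 lost its call after quantile normalization and in either batch alone. Besides the settings named above, Car4 lost its call after quantile normalization and in either batch alone, and so did Ear1, which also lost it with the variance trend (adjusted p = 0.0573) and without the filter (0.0522). Markers called lower numbered 1 without the filter and with the variance trend, 0 after quantile normalization, 0 in batch 1 and 0 in batch 2; without single mice they numbered 1 to 4. Markers called higher numbered 0 without the filter, with the variance trend, with the robust variance, after quantile normalization and in either batch, and 0 to 1 without single mice. Krt19 changed sign in batch 2 alone (0.029), and Plet1 without filtered-air mouse 5 (-0.003) or 6 (-0.007), its range without single mice reaching 0.065. Fabp1 passed with RNA integrity as covariate (adjusted p = 0.0396) and Cidec without the batch term (0.0435). Over all genes, quantile normalization gave 171 calls instead of 834, batch 1 alone 90 and batch 2 alone 0; without single mice the count ran from 538 (without filtered-air mouse 1) to 751. With the variance trend 221 genes were called lower, against 361. The interaction test called 0 genes under all filters and variance settings tried; before adjustment, 502 to 744 genes were under 0.05. The cause of these changes was not tested, and the fits of 1 batch also held fewer mice. Of the 198 results for the markers under alternatives, 159 kept direction and call. Of the called genes named beside the markers, Krt80 (adjusted p = 0.0685), Car13 (0.0829), Stau2 (0.083), Patj (0.107), Chil3 (0.154), Pdlim1 (0.168), Krt7 (0.173), G0s2 (0.184), Rnase4 (0.185) and Lpcat4 (0.346) lost their call after quantile normalization and Pnpla2 kept it. All 11 lost it in either batch alone, except G0s2, which passed in batch 1.

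Same-numbered mice of the groups are different animals. They were not treated as paired because the labels state no link. The correlation of their deviations ran from -0.00263 to 0.284 and exceeded 0.1 in 4 of 6 numbers. Whether same-numbered mice are linked was not tested. With the replicate block 853 genes were called, among them 4 markers lower (Krt79, Ear1, Fabp1 and Cidec) and 1 higher (Car4); of the other genes examined, Krt7 (0.0723) and Lpcat4 (0.0512) lost their call with it, and Cd79a, Upk3b and Sirpb1c passed. Of the 12 mice, 6 correlated best with their own number among the 6 numbers of the other group.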

Other observations

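Some genes on the lists of cell type markers changed. Epcam, an adhesion molecule of epithelia, fell by 0.55 (SE 0.0992, limma adjusted p = 0.0062), and Akap5, a kinase anchor listed for alveolar type 1 cells, fell by 0.56 (SE 0.0972, limma adjusted p = 0.00508), both with separate groups. The rest of their lists was not called, 10 of 11 airway and 6 of 7 type 1 cell genes, among them Krt8 and Krt18. Adgre1, which encodes a surface receptor of macrophages that is on the list of alveolar macrophage markers, fell by 0.30 (SE 0.0468, limma adjusted p = 0.00291), also with separate groups. Cxcr2, listed for neutrophils, rose by 0.79 (SE 0.0909, limma adjusted p = 0.000451), while Camp was without reads in all 12 mice and the other 5 tested neutrophil genes were not called. These 4 genes kept their call in all 12 fits without 1 mouse. Cxcr2 lost it with the variance trend, Epcam and Adgre1 after quantile normalization, and all 4 in either batch alone. In the lists of interstitial or monocyte-derived macrophages, monocytes, eosinophils, type 2 cells, capillaries, fibroblasts, T and NK cells, B cells, dendritic cells and mesothelium, limma called 0 genes in either direction, with 0 to 3 in each list at an unadjusted p under 0.05, which 16.7% of all genes tested reached. The highest share was that of the B cell genes, where 3 of 4 reached it and all differences were negative, with a median of -0.22. Among them Cd79a, at -0.285 (limma adjusted p = 0.0853), passed with the replicate block (0.0395) and without filtered-air mouse 2.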
